A study of Homo sapiens with 17 samples.

Results

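A promoter-interacting region is a piece of the genome that is found joined to a promoter more often than expected for its distance, and some such regions are joined to many promoters. The fragments described here are the non-bait HindIII fragments that had interactions on their own chromosome with 5 or more different bait fragments in the naive or the primed interaction list. They numbered 1458 of the 72167 non-bait fragments with any such interaction (2.02%), and are called many-bait fragments below. They were chosen by their bait numbers, which are therefore given as a description and were not tested.

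In Promoter Capture Hi-C (PCHi-C), fixed chromatin is cut with HindIII, fragments that are neighbours in space are ligated, and RNA baits then enrich the products that contain a promoter. The cells were PSCs of H9 NK2, an established line of human embryonic stem cells, either naive (grown on Matrigel with the inhibitors PD0325901, CHIR99021 and Go6983 and with human LIF) or primed (grown on Vitronectin in TeSR-E8), both under 5% O2 and 5% CO2. Each state had 1 deposited list in which 2 replicates were combined, with 81606 interactions in naive and 91136 in primed PSCs, so that no difference in bait number has a replicate check. For H3K4me1 there were 2 naive and 3 primed CUT&RUN libraries, with 6743809 to 26596518 reads a library as computed from the value of an empty tile. The methods of the study call the replicates biological. All came from 1 cell line, so p-values measure the spread between libraries of that line.

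H3K4me1 is a histone mark found at enhancers and on the flanks of promoters. Enhancers reach promoters through loops of chromatin, which are held in many places by the DNA-binding protein CTCF and the cohesin ring. Genes that arose by duplication often sit side by side and share such elements. Developmental genes such as the HOX, DLX and NKX2 families are kept silent by Polycomb proteins in primed pluripotent cells, where their promoters can lie close to each other.

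Reference sequence (GRCh38, plus strand) is shown for 4 fragments on which the results below turn, as the 300 bases in the middle of their 500 bp tile with the highest mean H3K4me1, kept to the bases inside the fragment. The first and second fragments are neighbours upstream of PCDHB2 in the protocadherin cluster, the third lies between the histone genes H2BC14 and H4C11, and the last far from the HOXA genes that it contacts. Capitals mark matches to the searched motifs, and only the second window held any.
Protocadherin fragment, chr5:141086101-141086400: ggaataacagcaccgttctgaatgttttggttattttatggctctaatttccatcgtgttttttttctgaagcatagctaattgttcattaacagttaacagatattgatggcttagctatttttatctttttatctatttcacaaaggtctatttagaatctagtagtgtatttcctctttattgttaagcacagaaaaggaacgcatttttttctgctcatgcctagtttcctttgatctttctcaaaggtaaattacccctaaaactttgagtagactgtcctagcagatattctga
Neighbouring protocadherin fragment, chr5:141090601-141090900: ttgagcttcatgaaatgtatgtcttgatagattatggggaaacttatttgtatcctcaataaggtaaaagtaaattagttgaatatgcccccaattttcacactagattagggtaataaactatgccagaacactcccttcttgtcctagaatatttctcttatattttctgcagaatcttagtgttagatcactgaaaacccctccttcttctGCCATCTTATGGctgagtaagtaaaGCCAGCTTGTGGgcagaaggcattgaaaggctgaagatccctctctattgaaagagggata
Histone fragment, chr6:27822737-27822900: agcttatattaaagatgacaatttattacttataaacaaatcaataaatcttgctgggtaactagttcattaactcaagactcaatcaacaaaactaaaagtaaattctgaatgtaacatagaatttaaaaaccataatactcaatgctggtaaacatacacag
HOXA fragment, chr7:25862101-25862400: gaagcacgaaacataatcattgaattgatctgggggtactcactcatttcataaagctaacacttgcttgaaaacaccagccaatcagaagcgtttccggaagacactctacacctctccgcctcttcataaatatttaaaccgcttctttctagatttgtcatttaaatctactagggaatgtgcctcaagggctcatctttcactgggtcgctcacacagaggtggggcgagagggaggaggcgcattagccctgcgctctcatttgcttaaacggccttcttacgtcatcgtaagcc

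Both matches in the second window were to the CTCF letters (CCA, 2 free bases, AG, 2 free bases and GGC) on the minus strand. In all, 45 of the 1458 many-bait fragments (3.09%, 95% Wilson interval 2.31 to 4.10) held these letters on either strand of their window, against 2.09% of the 70709 other non-bait fragments. The interval is for counting error only, since neighbouring fragments are not independent, and the difference was not tested. The octamer ATGCAAAT was in 2.61% of the windows and in 2.85% of the others, the KLF letters CCACNCCC in 8.64% and 7.37%, and the TFAP2 letters GCCNNNGGC in 7.13% and 5.97%. The share of windows with CTCF letters was 1.89% among fragments with 1 bait, 2.42% with 2 baits, 2.98% with 3 baits and 3.12% with 4 baits. It was 3.21% with 5 to 9 baits and 1.69% (2 of 118) with 10 or more. These matches are a description of letters in the reference, and occupancy was not measured.

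Many-bait fragments lay where baits were dense. The median number of baits within 500 kb was 17, against 7 for the other non-bait fragments, and was 32 for the 118 fragments with 10 or more baits. The nearest bait was 16.3 kb away in the median, against 38.1 kb. Among the baits within 500 kb, the median share contacted in either state was 33.3%, against 12.5% for the others. The choice of fragments by bait number favours a higher share, so this contrast is not a separate result. Baits on both sides were contacted by 42.5% of many-bait fragments and by 5.20% of the others, a measure that having few baits limits. In length and base composition they were alike, with a median of 2776 bp against 2520 bp and a GC content of 41.4% against 40.6%.

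Not all of these fragments lacked a promoter by a later annotation. Although the capture design gave them no bait, 262 (18.0%) held the start of a protein-coding transcript of GENCODE release 44, against 9.39% of the others, and 327 held a protein-coding promoter when the 1000 bp upstream of each start were included. Another 150 held a promoter of other genes only, which left 981 (67.3%) with no annotated promoter, against 81.9% of the others. By position, 294 overlapped a protein-coding exon but no start, 281 lay in introns (19.3%, against 31.7%) and 621 were intergenic. The 5′ end of the nearest protein-coding gene was 13.4 kb away in the median, against 42.9 kb, and 844 fragments (57.9%) were over 10 kb from it.

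The chromosomes were unevenly represented. Chromosome 14 held 153 many-bait fragments, 10.5% of them beside 3.43% of all non-bait fragments, chromosome 12 held 146 and chromosome 1 held 237. Chromosome 4 held 18, or 1.23% beside 5.85%, and chromosome 13 held 4. Fragments that shared a bait on a chromosome were joined into loci, since neighbours contact the same promoters and are not independent. This gave 332 loci, of which 155 had a single fragment, while the 31 loci with 10 or more fragments held 775 of the 1458.

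The baits contacted were shared unevenly among the fragments. Many-bait fragments contacted 3211 different baits, 1656 of them from a single such fragment and 197 from 10 or more. The bait at OR4K17, an olfactory receptor gene on chromosome 14, was contacted by 74 many-bait fragments, 64 in naive and 73 in primed PSCs. Altogether 357 fragments (24.5%) contacted 5 or more baits of 1 of the gene lists, with a median of 24 baits within 500 kb and a GC content of 38.1%. The other 1101 fragments had a median of 14 baits within 500 kb and a GC content of 42.3%. How reads from near-identical gene copies were assigned in these clusters was not tested, and values there are uncertain in this respect.

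The number of baits differed between the states at most of these fragments. It was higher in primed PSCs at 845 (58.0%), higher in naive PSCs at 504 (34.6%) and equal at 109. Of the fragments whose number differed, 62.6% had more baits in primed PSCs, against 55.6% of the other non-bait fragments. This contrast is not independent of the choice, which used the higher number of the states, and the primed list was the longer one. In naive PSCs 790 reached 5 baits, in primed PSCs 1049 did, and 381 did in both, so that 409 passed in naive only and 668 in primed only. With the same number of top-scoring interactions taken from each list, 1325 fragments reached 5 baits. Of these, 690 had more baits in primed and 535 had more in naive PSCs, a split of 52.1% and 40.4%. The other non-bait fragments were not recounted in this way.

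**Figure D1:**
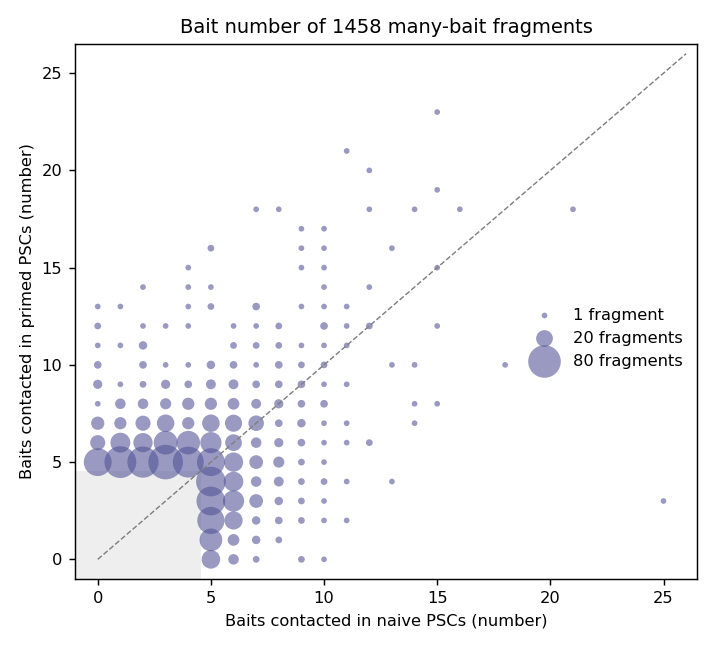
Number of baits contacted by each of the 1458 many-bait fragments in naive (horizontal axis) and primed PSCs (vertical axis). The area of a point grows with the number of fragments at that position, the dashed line marks equal numbers, and the grey area holds fragments with under 5 baits in both states, which were left out by definition. More fragments lie above the line (845) than below it (504), and 1 fragment stands apart with 25 naive and 3 primed baits.

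The change from naive to primed ranged from a loss of 22 to a gain of 13 baits, with a median gain of 1. A gain of 5 or more was seen at 233 fragments and a loss of 5 or more at 85, whereas 646 changed by 2 or less. No bait at all was listed for 99 fragments in naive and for 37 in primed PSCs. They took 6421 of the 68712 naive interactions of non-bait fragments within chromosomes (9.34%) and 7879 of the 78765 primed ones. Of these, 4147 were in both lists, 64.6% of the naive and 52.6% of the primed ones. The median distance was 239 kb in naive and 267 kb in primed PSCs. For the fragments just inside the threshold (673 with 5 baits in the higher state) the median was 4 naive and 5 primed baits, and for those just outside it (1796 with 4 baits) 3 naive and 4 primed baits.

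At the clustered protocadherins, which encode adhesion proteins that give neurons their cell surface identity, 68 many-bait fragments between 140757652 and 141586349 of chromosome 5 made 354 naive and 729 primed interactions. The number of baits was higher in primed PSCs at 60 of them and higher in naive PSCs at 4. Primed interactions were 67.3% of the sum (95% exact interval 64.4 to 70.1, for counting error only, since interactions of a locus share fragments), and 65.9% with equal list sizes. The fragment with most baits here, chr5:141085886-141086400, contacted 15 baits in naive and 19 in primed PSCs and 25 in either, among them PCDHA, PCDHB and PCDHG genes and DIAPH1, a formin. Its right neighbour chr5:141086401-141091057, the one with CTCF letters, went from 11 to 21 baits and kept all 11. The fragment chr5:141178886-141182526, which holds the start of PCDHB16, went from 15 to 23. The fragments chr5:141248391-141252298 and chr5:141238893-141242601, at and next to PCDHB15, went from 12 to 20 and from 14 to 18. Farther downstream, 2 adjacent fragments in DIAPH1 introns, chr5:141536974-141539868 and chr5:141539869-141546797, went from 2 to 14 and from 1 to 13 baits, all of them to their left.

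The histone cluster on chromosome 6 went the other way. Replication-dependent histone genes, which supply histones for newly made DNA, stand there in groups between 26022375 and 27890341. The 40 many-bait fragments of this locus made 339 naive and 190 primed interactions, with fewer baits in primed PSCs at 31 and more at 8. The primed share of the sum was 35.9% (31.8 to 40.2). It rose to 45.5% with at least 10 reads an interaction and to 48.1% when interactions over 1 Mb were left out. The largest loss was at chr6:27869843-27872603, which holds H3C11 and went from 25 naive baits with 482 reads to 3 primed baits with 28 reads. Of the 25 naive baits, 19 were over 1 Mb away. The fragment chr6:27139674-27144096, which overlaps an exon of H4C9, kept 16 of its baits (21 naive, 18 primed), chr6:27834331-27850973 with H2AC15 and H2BC15 went from 18 to 10 (but from 781 to 877 reads), and the histone fragment chr6:27822737-27823187 shown above went from 13 to 4.

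**Figure D2:**
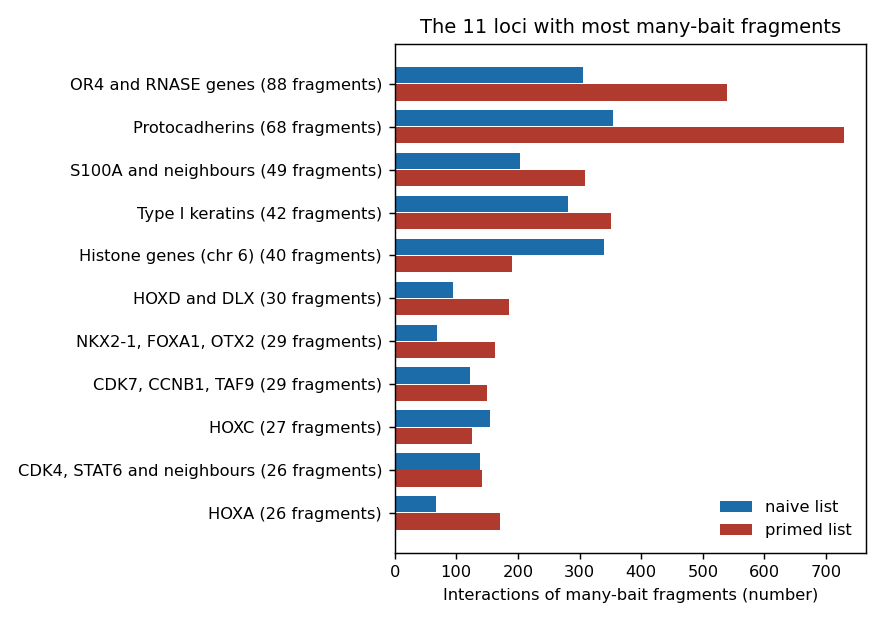
Interactions of many-bait fragments in the naive (blue) and primed list (red) for the 11 loci with most such fragments, the last pair tied at 26 fragments. Bars start at 0 and give 1 number a list, with no replicates. The protocadherin locus rises from 354 to 729, while the histone locus falls from 339 to 190 and the HOXC locus from 154 to 125.

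The HOX genes, which set positions along the body axis, were all contacted: 40 of 40 baited fragments with a HOX name by 103 many-bait fragments, of which 78 had more baits in primed and 16 in naive PSCs. The clusters differed. At HOXA the 26 fragments made 67 naive and 171 primed interactions, and at HOXD and DLX on chromosome 2 the 30 fragments made 95 and 186. At HOXC the order was the reverse, with 154 naive and 125 primed interactions of 27 fragments, of which 15 had more baits in naive PSCs. The HOXA fragment shown above, chr7:25854578-25864445, had no bait in naive PSCs and 12 in primed PSCs, at HOXA genes and EVX1, all over 1 Mb away, at a median CHiCAGO score of 14.3. It was intergenic, 93.2 kb from the nearest bait and 288 kb from the start of NFE2L3, the nearest protein-coding gene.

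A similar shift was seen for other developmental regulators. Of the 94 many-bait fragments that contacted a homeobox or forkhead gene outside HOX, 76 had more baits in primed and 14 in naive PSCs, and their interactions with these genes numbered 39 in naive and 177 in primed. A locus on chromosome 14 with NKX2-1, FOXA1, PAX9 and OTX2 among its baited genes had 29 many-bait fragments with 69 naive and 162 primed interactions. Its fragment chr14:36584755-36586500, 2.14 kb from the start of NKX2-8, had 2 naive baits with no protein-coding promoter. In primed PSCs it had 7 others, among them PAX9, FOXA1 and NKX2-1 (thyroid, lung and forebrain), 4 of them over 1 Mb away.

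The fragments with 5 or more interactions over 1 Mb were different ones in each state. In naive PSCs 16 fragments contacted 5 or more baits over 1 Mb away, of which 15 lay in the histone locus and the remaining one, on chromosome 16, contacted METTL9 and IGSF6 among others (5 such interactions in naive and 2 in primed PSCs). In primed PSCs 14 did, of which 5 contacted HOXA, 4 HOXD and DLX genes, 2 the NKX2-1 and FOXA1 genes, and 1 each SHH and EN2, TMPRSS11 genes, and ITIH5 and USP6NL. No fragment was in both sets. The 15 histone fragments made 113 such interactions in naive and 10 in primed PSCs, and the 5 HOXA fragments none in naive and 43 in primed PSCs. All many-bait fragments together had 194 interactions over 1 Mb in naive and 340 in primed PSCs. These were 3.02% of those of many-bait fragments in naive PSCs, against 1.36% of the others, and 4.32% against 7.04% in primed PSCs.

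The olfactory receptors, odour sensors of the nose, were contacted by 178 fragments, with 554 naive and 854 primed interactions with receptor genes. Their largest locus, with OR4 and RNASE genes on chromosome 14 between 19728979 and 21016907, held 88 fragments, of which 78 had more baits in primed and 5 in naive PSCs (306 and 540 interactions). At 1 locus on chromosome 11 the order differed: chr11:55936970-55939518, close to OR5I1, contacted 14 baits in naive and 8 in primed PSCs, all 8 shared. Of the 11 fragments of that locus 10 had more baits in naive PSCs (84 and 34 interactions). It was not so at the other loci with olfactory receptor genes on chromosome 11, which had 73 naive and 73 primed, 26 and 45, and 10 and 16 interactions.

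Keratins, the intermediate filament proteins of epithelia, were contacted by 59 fragments, of which 31 had more baits in primed and 20 in naive PSCs. The fragment chr17:40857197-40862773 in KRT12 went from 12 to 18 baits, of which 8 were shared, with 12 keratin and 9 keratin-associated baits in all. Keratin-associated proteins, which cross-link keratin in hair, were contacted by 45 fragments, with 115 naive and 136 primed interactions. The largest gain was at chr1:152320143-152322159, in an intron of FLG (filaggrin, a protein of the skin barrier). It had no naive bait and 13 primed baits, among them those of LCE and SPRR genes of the cornified envelope. In the imprinted region of chromosome 14, chr14:101630999-101632030 contacted 15 naive and 12 primed baits, of which 5 were shared, and chr14:101646480-101647468 none and 12. Apart from RTL1, a gene derived from a retrotransposon, the genes named at these baits were non-coding.

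The remaining fragments with the largest losses held starts of genes outside these clusters. The loss at chr14:49756984-49770477, with the start of the ubiquitin ligase gene KLHDC2, was from 10 baits, such as RPS29, POLE2 and MGAT2, to none. At chr11:65329964-65339558, with the start of DPF2 (a subunit of BAF chromatin remodellers), 11 naive baits included FAU and CAPN1, and 2 of the 11 were kept. At chr9:135959950-135970652, with the start of UBAC1, 9 naive baits, among them NACC2 and LHX3, fell to none. Genes named ZNF were contacted by 95 fragments, about evenly divided (46 with more baits in primed, 37 in naive PSCs). The fragment chr19:57703617-57712852 at ZNF154 contacted 8 of them and went from 9 to 2 baits in all.

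The remaining lists held fewer fragments. Cytosolic ribosomal protein genes were contacted by 32 fragments, with 37 interactions in each list; chr17:28939920-28951697, with RPL23A among its baits, went from 5 to 7. HLA genes of antigen presentation were contacted by 7 fragments, and chr6:32417445-32426959 went from 7 to 5 baits including HLA-DRB1 and HLA-DQB1. Of the pluripotency genes, 2 of 11 naive, 1 of 8 core and 2 of 18 primed baits were contacted by a many-bait fragment. These were few. The fragment chr12:54013375-54016454 at HOXC6 contacted TBX3, of the naive list, in primed PSCs only. The fragment chr1:26279691-26283345 contacted LIN28A (an RNA-binding regulator of pluripotency) and went from 7 to 3 baits. The fragment chr17:43683874-43685007 contacted ETV4, an ETS factor, and went from 6 to 3.

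H3K4me1 did not set many-bait fragments far apart from the rest. A fragment's value is the mean log2 RPM of its 500 bp tiles, that is, of reads scaled to the depth of the library, on the log2 scale. The lowest value a tile could take, that of an empty one, ranged from -4.89 to -2.91 between libraries. The median many-bait fragment stood at -2.40 and -2.10 in the naive libraries and at -2.67, -2.36 and -2.54 in the primed libraries. The other non-bait fragments stood at -2.68 and -2.33 in the naive and at -2.69, -2.41 and -2.59 in the primed libraries. Many-bait fragments were thus 0.23 to 0.28 higher in naive and up to 0.05 higher in primed PSCs. They were lower in all 5 libraries than the fragments with 4 baits, which stood at -2.28 and -2.0 in naive and at -2.62, -2.26 and -2.44 in primed PSCs. The highest tile of a fragment was also taken in each library, where it could be a different tile, and averaged over a state's libraries. This top-tile mean was above 0 at 29.6% of many-bait fragments in naive and 25.2% in primed PSCs, against 22.1% and 19.5% of the others. It was above 0 in neither state at 918 fragments (63.0%).

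**Figure D3:**
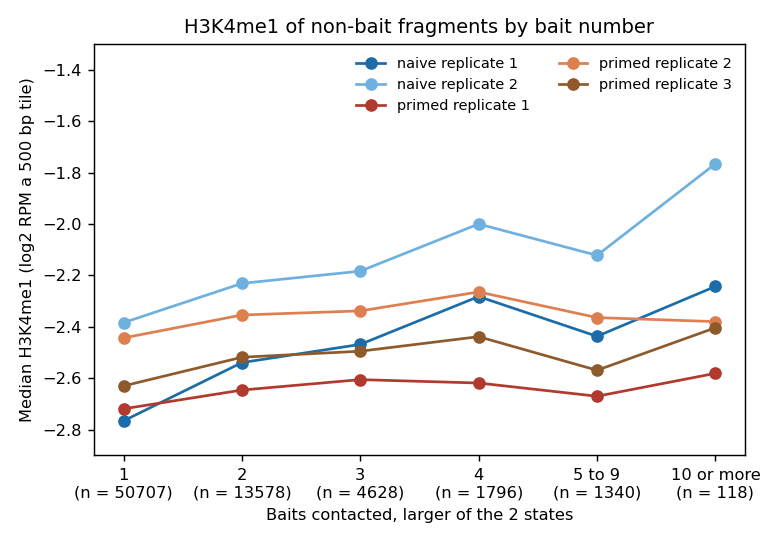
Median H3K4me1 (log2 RPM of 500 bp tiles) of non-bait fragments by the number of baits in the higher state, for each of the 5 libraries. Lines join medians and n is the number of fragments. The naive libraries rise from -2.77 and -2.38 at 1 bait to -2.24 and -1.77 at 10 or more, and the primed libraries stay within 0.23 of their values at 1 bait. The naive rise is not continuous, with -2.28 and -2.0 at 4 baits and -2.44 and -2.12 at 5 to 9.

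H3K4me1 of many-bait fragments differed with what they contacted, but not in 1 direction for all gene families. Those with 5 or more baits of 1 gene list had medians from -3.13 to -2.54 over the 5 libraries, below the other many-bait fragments (-2.58 to -1.94) in every library. The top-tile mean was above 0 in either state at 25.8% of the former and 40.7% of the latter. The former group was mixed, with 140 of its 357 fragments at olfactory receptors. A protein-coding start was held by 10.4% of it and by 20.4% of the latter. The 40 fragments of the histone locus stood at -0.33 and -0.36 in naive and at -1.74 to -0.71 in primed PSCs. The 26 of the HOXA locus stood at -1.96 and -1.54 in naive and at -1.51 to -0.76 in primed PSCs. The 262 fragments with a protein-coding start had medians of -1.72 and -1.54 in naive PSCs and -2.43 to -1.99 in primed PSCs. The classes were also set side by side among fragments with 10 to 25 baits within 500 kb and no protein-coding start. In this band the top-tile mean was above 0 in naive PSCs at 25.1% of 665 many-bait and 26.1% of 19359 other fragments. In primed PSCs the shares were 20.8% and 19.3%. The band's many-bait fragments had lower medians than its other fragments in all 5 libraries. They stood at -2.47 and -2.23 in naive and at -2.81, -2.55 and -2.73 in primed PSCs. The other fragments of the band stood at -2.41 and -2.04 in naive and at -2.74, -2.36 and -2.54 in primed PSCs. The part of bait density and of starts in the overall difference was not tested further.

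**Figure D4:**
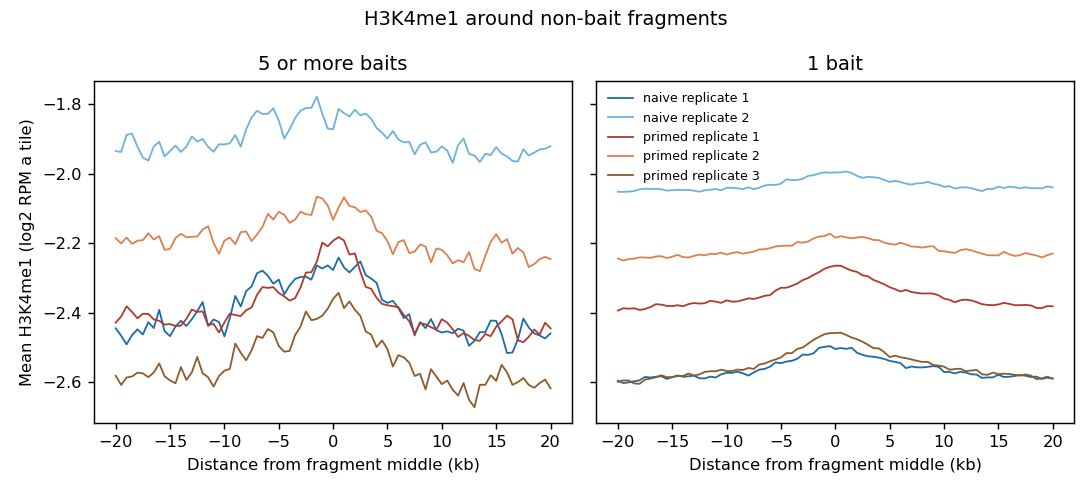
Mean H3K4me1 (log2 RPM a tile) within 20 kb on either side of the middle of fragments with 5 or more baits (left) and with 1 bait (right), one line a library. All 5 libraries are highest within 1.5 kb of the middle in both classes. At 20 kb to the left, naive replicate 1 stands at -2.44 around many-bait fragments and at -2.60 around those with 1 bait, and primed replicate 3 at -2.58 and -2.60.

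Between the states, H3K4me1 was compared with limma over all 88413 fragments of both lists (2 naive against 3 primed libraries), and the values of the many-bait fragments were read from that fit. Of the 1458, 215 (14.7%) were higher in naive and 109 (7.48%) higher in primed PSCs at a Benjamini-Hochberg adjusted p under 0.05, and 1134 did not pass. Among all fragments tested, 13.2% were called higher in naive and 8.19% higher in primed PSCs, or 21.4% in all, so the shares of many-bait fragments were near the background. The libraries of the states did not overlap at 438 fragments that were higher in naive (30.0%, background 26.4%) and at 183 that were higher in primed PSCs (12.6%, background 15.9%). The median difference, naive minus primed, was 0.15 on the log2 scale, against 0.06 for all fragments. The calls rested on both naive libraries. Fewer fragments passed in each direction when either of these was left out, and without naive replicate 2 the median difference was -0.075.

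The calls were counted by position and by gene list. Among all fragments tested, the shares were 13.2% higher in naive and 8.19% higher in primed PSCs. Of the 262 fragments with a protein-coding start, 58 (22.1%) were higher in naive and 9 (3.44%) in primed PSCs, whereas of the 281 intronic ones 42 (14.9%) and 45 (16.0%) were. By gene list, of the 55 fragments with histone genes 19 were higher in naive and 1 in primed PSCs, with a median difference of 0.87. Of the 103 with HOX genes 4 and 18 were, with a median of -0.32, and of the 94 with other homeobox or forkhead genes 6 and 20, with a median of -0.38. The protocadherin fragments divided into 9 and 4 of 68, the olfactory receptor fragments into 11 and 3 of 178, the keratin fragments into 1 and 8 of 59 and the keratin-associated ones into 1 and 6 of 45. For ZNF genes the calls were 17 and 4 of 95, for ribosomal protein genes 9 and 1 of 32, and for HLA genes 2 of 7 were higher in naive PSCs. The naive, core and primed pluripotency lists, with 3, 2 and 2 fragments, had 1 call, a fragment of the primed list that was higher in primed PSCs. Beside the shares of all fragments, the protocadherin calls were near and the olfactory receptor calls low in both directions. Differences between lists or positions were not tested.

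H3K4me1 moved weakly with the change in bait number. Of the 85 fragments that lost 5 or more baits from naive to primed PSCs, 20 (23.5%) were higher in naive and 2 (2.35%) in primed PSCs, with a median difference of 0.45. Of the 233 that gained 5 or more, 32 (13.7%) and 19 (8.15%) were, with a median of 0.11. Across the 1458 fragments, Pearson's r between the change in baits and the change in H3K4me1 (both primed minus naive) was 0.12 (Spearman's rho 0.13). Over the means of the 332 loci r was 0.29. Fragments share baits and libraries, so these are descriptions without a test.

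In the protocadherin cluster, bait number and mark went opposite ways at 3 of the 5 fragments with most baits. At chr5:141085886-141086400 H3K4me1 was -0.64 and -0.17 in naive PSCs and -3.30, -2.98 and -2.73 in primed PSCs, although more baits were contacted in primed. The difference of 2.60 ± 0.37 (SE) had an adjusted p of 4.36e-05 in limma. This fragment's value rests on 1 tile. Its neighbour chr5:141086401-141091057 stood at -0.90 and -0.53 in naive and at -3.03, -2.68 and -3.02 in primed PSCs, a difference of 2.20 ± 0.36 with an adjusted p of 0.000181 in limma. At chr5:141178886-141182526 the naive values of -1.98 and -1.78 were above the primed values of -3.03, -3.09 and -4.07, with a difference of 1.52 ± 0.44 and an adjusted p of 0.0175 in limma. It passed in 8 of 11 alternatives. Leaving out either naive library was among those in which it did not. The other 2 of the 5, chr5:141248391-141252298 and chr5:141238893-141242601, differed by 0.44 ± 0.37 and 0.76 ± 0.40 and did not pass (adjusted p of 0.497 and 0.203 in limma, and in none of 11 alternatives). The 2 fragments in DIAPH1 introns with large gains were low in all libraries (-3.53 to -2.58) and did not pass.

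At the HOXA fragment chr7:25854578-25864445, with baits in primed PSCs only, H3K4me1 was 0.61 and 0.58 in naive PSCs and 0.04, -1.21 and -0.64 in primed PSCs. The naive libraries were all above the primed ones, by 1.19 ± 0.40 with an adjusted p of 0.0369 in limma, and this passed in 2 of 12 alternatives, with adjusted p from 0.000662 to 0.541.

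The 5 largest differences with higher H3K4me1 in naive PSCs were at fragments that also had more baits in naive PSCs. These were short fragments, whose values rest on 1 to 5 tiles each. Of these, 3 lay in the histone cluster. At chr6:27822737-27823187, 0.905 kb from the start of H4C11, the mark was 0.14 and 0.42 in naive PSCs and -3.15, -2.98 and -3.15 in primed PSCs, a difference of 3.37 ± 0.35 (adjusted p of 3.78e-06 in limma). The adjacent fragments chr6:26236853-26237929 and chr6:26237930-26238512, between H1-3 and H4C6, differed by 3.18 ± 0.37 and 3.62 ± 0.52 and went from 10 to 3 and from 7 to 1 baits. Their read numbers went the other way, from 509 to 778 and from 68 to 208. On chromosome 1, chr1:161373088-161374662, an intergenic fragment 5.21 kb from the start of CFAP126, stood at 0.84 and 0.86 in naive and at -2.34, -3.13 and -2.19 in primed PSCs. It contacted 9 naive baits, among them USF1 and SDHC, and 4 of these in primed PSCs. The fragment chr1:161094892-161097515, 0.846 kb from the start of KLHDC9, differed by 3.23 ± 0.37 and went from 5 baits to the one at USF1.

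By contrast, H3C11 and its fragment, which had the largest loss of baits, showed H3K4me1 of -0.11 and -0.58 in naive and of -0.47, -0.62 and -0.54 in primed PSCs, and these groups overlapped. The difference was 0.20 ± 0.36 with an adjusted p of 0.815 in limma.

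**Figure D5:**
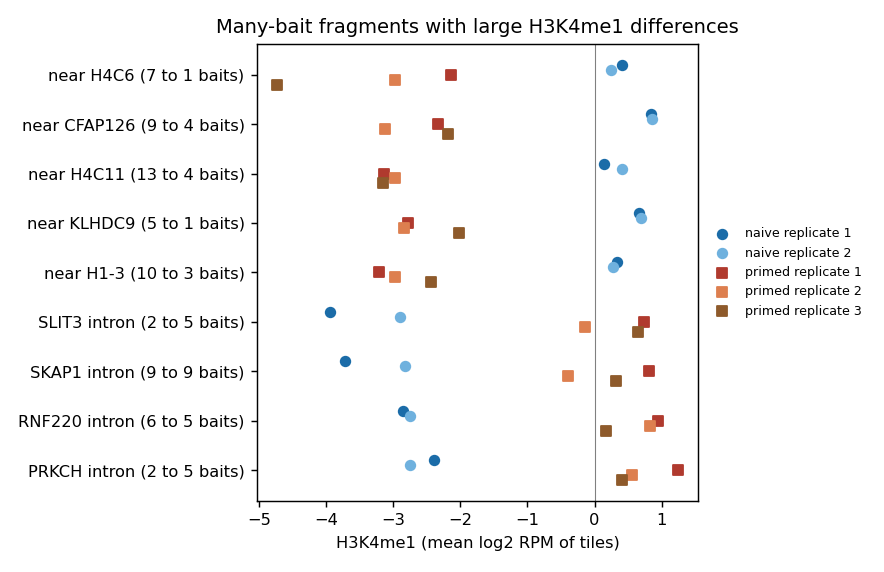
H3K4me1 (mean log2 RPM of tiles) in each library for the fragments described with the largest differences in each direction (5 higher in naive, 4 higher in primed PSCs), with their naive and primed bait numbers. Circles are naive and squares primed libraries. In the upper 5 all naive values are above 0 and all primed values below -2, and in the lower 4 all naive values are below -2.

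Of the 5 largest differences with higher H3K4me1 in primed PSCs, 4 lay in introns and are described here. Their values rest on 1 to 3 tiles each. In an intron of PRKCH, chr14:61218441-61219777 differed by -3.31 ± 0.38 and went from 2 to 5 baits, with SIX4 in both states. In an intron of SLIT3, which encodes an axon guidance ligand, chr5:168983273-168984546 stood at -3.95 and -2.91 in naive and at 0.73, -0.14 and 0.65 in primed PSCs, and also went from 2 to 5 baits. In an intron of SKAP1, chr17:48259948-48260762 differed by -3.52 ± 0.41 with 9 baits in each state, 6 of them shared, at the HOXB genes. In RNF220, chr1:44592972-44593339 differed by -3.45 ± 0.37 and had 6 naive and 5 primed baits, 5 of them shared. All 9 of these fragments, 5 higher in naive and 4 higher in primed PSCs, passed the limma threshold under each alternative in which they were tested.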

How the data were processed

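The interaction lists of PCHi-C and the tiles of H3K4me1 CUT&RUN were analysed, both from H9 NK2 PSCs. Libraries were grouped by the state and replicate number in their labels. Hi-C counts in bins of 100 kb do not resolve fragments and were not used here, and no use was made of the NANOG, SOX2 and input libraries.

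For the lists, the authors mapped read pairs to GRCh38 with HiCUP, combined 2 replicates within CHiCAGO and deposited interactions with a score of at least 5, each with its CHiCAGO score and a combined, rounded read number that the authors deposited beside it and that is not a raw count. The score weighs the reads against those expected for the distance, so the lists depend on depth and on this background. Column 4 marks baits by strand and other fragments by a dot. The lists name no genes. Baits were named here from GENCODE release 44 promoters (start and 1000 bp upstream), which named 2524 of the 3211 baits contacted by a protein-coding gene and 507 by other genes only. A further 120 without any promoter were named by the protein-coding gene they lie in, and 60 had no name. All fragments had HindIII sites at both ends in the reference.

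H3K4me1 reads were trimmed with Trim Galore 0.5.0 and mapped with Bowtie2 2.3.2 (per the submitters' processing notes), and the authors deposited log2 RPM values of 500 bp tiles from SeqMonk, in which an empty tile counts as 0.9 reads. Low fragments therefore sit on a floor that differs with depth. In all 5 libraries 100% of tile values came out as whole reads within 0.05. A fragment's value is the mean of its tiles. All 88413 fragments of both lists were compared with limma 3.58.1 (lmFit, eBayes with trend, R 4.3.3) without a filter, with Benjamini-Hochberg adjustment and a threshold of 0.05. The script was tested on simulated data. Bait numbers had no test, with 1 list a state.

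The members, the 13 gene lists and the tests were chosen with earlier results of these data known. Named fragments are the 10 with most baits in either state, the 5 with the largest gain and loss, the 5 that were furthest up and the 5 furthest down in H3K4me1 among called fragments without overlap between libraries, and for each gene list the fragment with most of its baits. Loci named are the 10 with most members, and the HOXA locus, tied with the last of these. Alternatives were other scores, read numbers, distances, list sizes and bait numbers, and for H3K4me1 other tile summaries, filters, scaling, a replicate block and leaving out each library. Python 3.11.15 with pandas 2.3.3 and igraph 0.11.9 was used. Results for some of the named fragments and genes are not reported here.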

Additional observations from a re-analysis of the deposited data

How the results depend on the processing

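The bait numbers depend on the thresholds, as they must with fewer interactions. With a CHiCAGO score of at least 7 there were 442 many-bait fragments (290 with more baits in primed, 130 in naive PSCs), and with a score of at least 10 there were 110 (72 and 36). With 4 or more baits there were 3254 (1813 and 1163), and with 6 or more 785 (476 and 258). The share with more baits in primed PSCs was the larger one in each. For H3K4me1, a filter on low values left 139 many-bait fragments, of which 33 were higher in naive and 37 in primed PSCs (23.7% and 26.6%, beside 31.2% and 21.6% of all fragments then tested). An adjusted p of 0.01 left 119 and 63, with no share of all fragments set beside these counts. With 4 or more baits 500 and 255 of 3254 were called, and with 6 or more 113 and 50 of 785. The shares of all fragments for these 2 settings are those of the main fit, 13.2% and 8.19%. With each library left out in turn, the fragments higher in naive PSCs numbered 90 to 246, those higher in primed PSCs 32 to 146, and the median difference was -0.075 to 0.43. Leaving out a naive library leaves 1, which is then assumed to vary like the primed ones. The median difference was also negative (-0.0097) with the replicate block and centring together. The cause was not tested. The replicate numbers are shared by 2 pairs only, with correlations of 0.07 and 0.18 between same-numbered libraries, so the numbers were not taken to pair them. The replicate block alone gave a median difference of 0.06. Of the 36 named fragments, 16 passed the limma threshold, 12 of these under every alternative in which they were tested, and none of the 16 changed direction. Fragments at the floor of the shallower libraries, where 52.3% of tiles in naive replicate 2 were empty, limit what low levels can show.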

Other observations

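Further many-bait loci also differed between the lists. At the beta-defensin genes on chromosome 20 (DEFB116 to DEFB124, antimicrobial peptides), 25 fragments made 52 naive and 140 primed interactions. At TET1, SIRT1 and HNRNPH3 on chromosome 10, 13 fragments made 23 and 75, and all 13 had more baits in primed PSCs. More baits in naive PSCs were seen at the second histone cluster, with H2AC18 to H2AC20 on chromosome 1. There 14 of 18 fragments had more baits in naive PSCs, and the interactions numbered 103 and 75. For H3K4me1, 8 of these 18 fragments were higher in naive PSCs, beside 13.2% of all fragments tested. The same order was seen at BAG2, DST and PRIM2 on chromosome 6 (53 and 29 interactions of 10 fragments). These loci were chosen after their values were seen, with 1 list a state and no test.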
